A study of Mus musculus with 12 samples.

Results

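The comparison described here set mouse lungs with a conditional knockout of Tbx4 (CKO) against Control lungs at postnatal day 36 (P36). It used 6 of the 12 libraries of the series, 3 of CKO and 3 of Control, chosen by the genotype and age in their labels. Genes were limited to those on the autosomes with enough reads to be tested, 15372 of the 15923 genes tested in all. Control mice carried Tbx4 alleles flanked by loxP sites (Tbx4fl/fl), and CKO mice had Tbx4 removed conditionally. The sources used here do not give the Cre line, the cells it acts in or whether Control mice carried it. The other 6 libraries, with the same genotypes at postnatal day 14 (P14), share the estimate of spread. They are drawn on as a separate set of lungs and in the test of the difference between ages. Nothing in the labels states that libraries came from separate animals, so the p-values reflect only how these samples vary, which may be technical in part. The sample was whole lung, in which fewer cells of a type and less RNA per cell cannot be told apart.

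Tbx4 is a T-box gene whose product acts as a transcription factor in the mesenchyme, the connective tissue that surrounds the branching airways of the embryonic lung. Mesenchymal cells give rise to the fibroblasts and smooth muscle of the mature lung and lay down its collagen and elastic fibres. Human TBX4 variants are known from small patella syndrome and childhood pulmonary hypertension, and the series title names postnatal lung development and pulmonary hypertension as its questions. T-box factors bind short DNA motifs that contain the letters GGTGTG.

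Libraries at P36 held 18896950 to 28481876 counts. Control replicates 1 and 3 carried the same library number, and the biological coefficient of variation between them was 2.02%, while the remaining pairs of libraries of a group at P36 had 12.7% to 27.5%. Each result was therefore repeated with these libraries summed. Xist, the RNA that coats an inactive X chromosome, was high in Control replicates 1 and 3, while Y-linked genes were high in the 3 CKO libraries and in Control replicate 2. With a sex term in the model, Control replicate 2 is thus the only Control library that the CKO libraries are compared with. CKO replicate 3 stood apart by its fat and heart genes and by the airway gene Bpifa1. There the adiponectin gene Adipoq, a marker of fat cells, had 60.6 CPM (the count scaled to a fixed library total), Myh6, the heavy chain of atrial heart muscle myosin, had 517 CPM, and Bpifa1, which airway cells secrete, 198 CPM. The other 5 libraries reached at most 7.13, 71.5 and 6.43 CPM for these genes. Lung markers were present in all 6 libraries, with the surfactant gene Sftpc at 4492 to 7340 CPM and the alveolar type 1 gene Ager at 426 to 715 CPM.

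Tbx4 RNA was not lower in the libraries labelled CKO. Its level was 64.4, 79.8 and 62.7 CPM in Control replicates 1 to 3 and 87.4, 82.8 and 67.2 CPM in CKO replicates 1 to 3. The groups overlapped, and the log2 fold change of CKO over Control was 0.20 ± 0.14 (SE; edgeR quasi-likelihood adjusted p = 0.511). Adding a sex term gave -0.012, and summing the libraries as well -0.017. A gene total would include any RNA that lacks a deleted exon, and the cells in which Cre acts are not given. The Tbx4 total therefore does not check the labels, and every direction below rests on them. Why it was not lower was not tested.

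Of the 15372 autosomal genes, 232 rose and 124 fell in CKO at an adjusted p under 0.05, 356 or 2.32% of those tested (1.51% higher and 0.807% lower). Among these, 107 changed at least 2-fold, 86 up and 21 down. All 356 had CKO libraries wholly above or wholly below the Control libraries, and so did 22.4% of all tested genes. With Control replicates 1 and 3 summed, 31 genes rose (0.202%) and 9 fell (0.0586%), 0.26% of 15368 tested, and all 40 were among the 356. Without CKO replicate 3 293 rose (1.91%) and 127 fell, 2.73% together, and 276 of the 356 passed again. With a term for sex 21 rose and 16 fell (0.241%), 29 of them among the 356. Without Control replicate 1 the counts were 54 and 24, and without Control replicate 3 they were 71 and 27. Unless stated, SEs and adjusted p below are from the edgeR fit with all libraries apart. Control replicates 1 and 3 count as separate samples there, so both may be too small. The summed edgeR fit gave larger adjusted p, for example 0.041 for Col3a1 (0.00213 apart) and 0.0302 for Hr (0.00178 apart). The 40 genes past the threshold in both the 12-library and the summed fit carry most of the description below. All 40 also passed without CKO replicate 3, and 21 passed with the term for sex. When the sum and the sex term were combined, 1 of the 40 passed. Of 123 genes chosen for naming that passed with all libraries counted apart, these 40 passed when summed and 23 with the sex term. Without CKO replicate 3, 108 of the 123 passed, and the other 15 were C1s1, Col14a1, Fbln1, Gpc6, Ifit1, Ifit3, Kcnj5, Krt7, Lmod1, Mir143hg, Ncam1, Osr1, Reln, Scube3 and Tcf21, with adjusted p from 0.0501 to 0.0914.

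**Figure D1:**
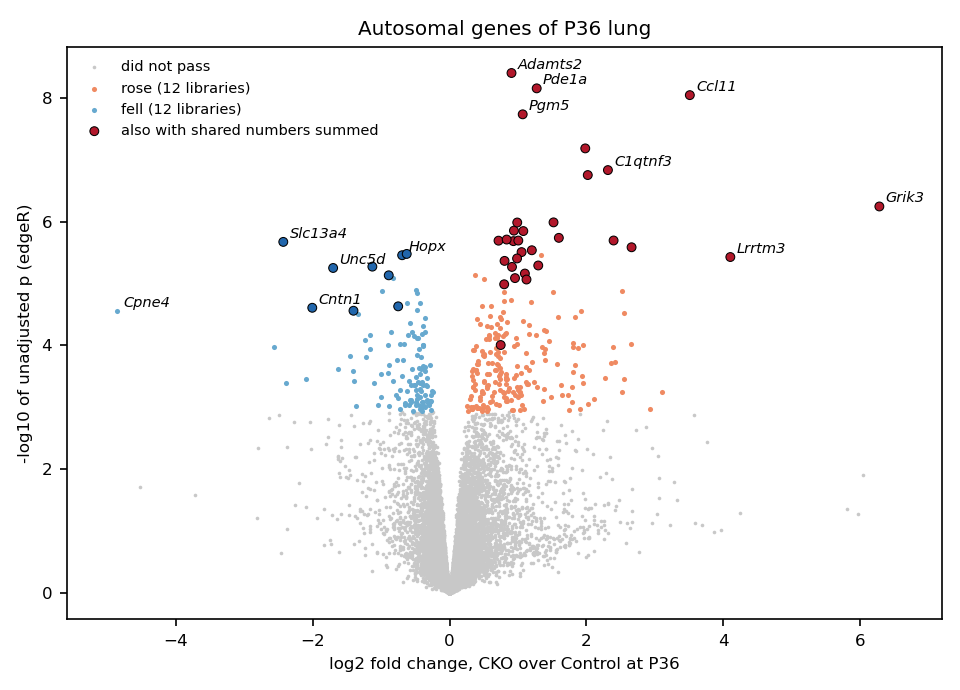
Each point is an autosomal gene tested at P36, with the log2 fold change of CKO over Control on the horizontal axis and -log10 of the unadjusted edgeR p on the vertical axis. Orange and light blue genes rose or fell with all libraries counted apart, and dark red and dark blue genes, 31 and 9 of them, also with the Control libraries of a shared number summed; Adamts2, Pde1a and Ccl11 lie highest.

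The smallest adjusted p among genes that rose in both fits belonged to Pde1a, Adamts2, Ccl11 and Pgm5. Adamts2, the protease that removes the amino-terminal propeptide from procollagens, stood at 89.4, 89.0 and 89.2 CPM in Control replicates 1 to 3 and at 167, 157 and 177 CPM in CKO replicates 1 to 3. The Control libraries were nearly equal, and every CKO library lay well above them. The log2 fold change was 0.91 ± 0.06 (adjusted p = 4.78e-05). Pde1a, a phosphodiesterase that calcium and calmodulin switch on to break down cyclic nucleotides, stood at 4.73, 4.97 and 5.32 CPM in Control and 11.6, 12.2 and 12.6 CPM in CKO. The groups lay far apart for the spread within each, and the log2 fold change was 1.27 ± 0.09 (adjusted p = 4.78e-05). Ccl11, the eosinophil-attracting chemokine eotaxin, stood at 3.64, 3.14 and 3.99 CPM in Control and 46.9, 38.8 and 37.6 CPM in CKO. The lowest CKO library was far above the highest Control library, and the log2 fold change was 3.51 ± 0.23 (adjusted p = 4.78e-05). Pgm5, a phosphoglucomutase-like protein of the sites where muscle fibres attach, went from 66.8, 68.6 and 64.6 CPM to 156, 126 and 137 CPM, a log2 fold change of 1.07 ± 0.08 (adjusted p = 7.33e-05). With the term for sex these 4 genes also passed, at log2 fold changes of 1.28 for Pde1a, 0.91 for Adamts2, 3.70 for Ccl11 and 1.03 for Pgm5.

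Promoters are shown for genes of this set that the results turn on, as the 250 bases before the start of transcription, to show how they differ in base composition and in the T-box motif. The sequences are those of RefSeq on build GRCm38.p6, which corresponds to the mm10 build of the counts, and read 5′ to 3′ along the strand of the gene. Capitals mark the motif AGGTGTG, searched on both strands, or its core GGTGTG, which every match of the longer motif contains.
Adamts2, chr11:50601835-50602084, plus strand: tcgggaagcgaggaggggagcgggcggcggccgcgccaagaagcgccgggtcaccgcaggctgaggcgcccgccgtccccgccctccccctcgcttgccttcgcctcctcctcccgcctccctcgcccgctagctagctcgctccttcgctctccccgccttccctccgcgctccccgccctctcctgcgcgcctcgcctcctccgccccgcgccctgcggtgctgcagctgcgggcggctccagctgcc
Col3a1, chr1:45311288-45311537, plus strand: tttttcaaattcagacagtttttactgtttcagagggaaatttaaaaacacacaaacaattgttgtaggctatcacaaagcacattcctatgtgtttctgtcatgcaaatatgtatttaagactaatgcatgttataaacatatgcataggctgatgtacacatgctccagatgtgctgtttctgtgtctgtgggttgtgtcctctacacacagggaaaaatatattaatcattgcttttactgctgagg
Pde1a, chr2:79908400-79908649, minus strand, the farthest downstream of its 4 annotated starts: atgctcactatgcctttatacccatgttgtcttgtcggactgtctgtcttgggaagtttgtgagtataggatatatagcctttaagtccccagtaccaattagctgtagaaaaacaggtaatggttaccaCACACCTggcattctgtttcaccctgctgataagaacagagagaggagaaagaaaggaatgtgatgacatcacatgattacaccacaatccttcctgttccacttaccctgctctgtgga
The Adamts2 promoter was 78.0% G or C and that of Col3a1 35.2%, and neither held the motif or its core in this window. The Pde1a start shown, at 43.2% G or C, held the longer motif as its reverse complement, and the other 3 starts of Pde1a held neither. Of the 40 genes, 26 matched an entry of the promoter table, with 37 starts. The motif AGGTGTG lay before a start of 1 of these genes, and the core GGTGTG before a start of 4 genes, which were Pde1a, Zfp423, Pth1r and C1qtnf3. Over all 27025 genes of the table, 5.88% had the motif and 18.3% had the core. These matches describe letters in a window and show no binding.

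Other genes that rose in both fits were rare in Control lung. Grik3, a subunit of the kainate class of glutamate receptors, had 2 counts over the Control libraries together and 156 over those of CKO, a ratio of 94.9 once scaled to library totals (exact 95% interval from 25.8 up to 791, covering counting error only). Its CPM in CKO were 1.62, 3.78 and 2.05, against 0.0403 at most in Control. Lrrtm3, an adhesion protein of excitatory synapses, stood at 0.106, 0.127 and 0.0403 CPM in Control and 1.48, 1.58 and 1.92 CPM in CKO, for a log2 fold change of 4.10 ± 0.50 (adjusted p = 0.00215). Lrrtm3 lies inside Ctnna3 on the opposite strand, and since the sources used here do not give the strand setting of the counting, reads of the pair cannot be told apart. Ctnna3 itself had a log2 fold change of 1.56 and did not pass (adjusted p = 0.112). Fbln7, a fibulin, stood at 0.212, 0.382 and 0.242 CPM in Control and 1.71, 1.94 and 1.67 CPM in CKO, with no overlap and a log2 fold change of 2.66 ± 0.32. Cacna2d3, an accessory subunit of calcium channels, went from 0.530, 0.467 and 0.604 CPM to 2.78, 3.47 and 2.30 CPM, a log2 fold change of 2.40 ± 0.28. Each of these 4 genes had CKO libraries that all lay above every Control library.

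Secreted proteins and enzymes were also among the rises. C1qtnf3, a secreted protein of the C1q and TNF family, stood at 4.24, 2.80 and 4.31 CPM in Control and 22.0, 21.2 and 13.6 CPM in CKO. CKO replicate 3 was the lowest CKO library and still above all Control libraries, and the log2 fold change was 2.32 ± 0.21, or 2.51 without that library. Wbscr17, an enzyme of the family that adds N-acetylgalactosamine to proteins, went from 1.41, 1.78 and 1.81 CPM to 7.41, 6.52 and 5.90 CPM, a log2 fold change of 1.98 ± 0.17. Adamts12, a secreted metalloprotease, stood at 11.3, 16.7 and 9.10 CPM in Control and 42.1, 33.1 and 37.1 CPM in CKO. Control replicate 2, the single Y-high Control library, was the highest of its group, and the log2 fold change of 1.60 ± 0.18 became 1.16 with the term for sex (adjusted p = 0.018). Itih5, which binds hyaluronan chains, rose by 1.08 ± 0.12, Shank1, a scaffold of the postsynaptic density, by 1.12 ± 0.15, and Hr, a corepressor needed for hair growth, by 0.94 ± 0.10. Fstl1, a secreted glycoprotein that can bind BMP ligands, stood at 131, 121 and 135 CPM in Control and 219, 202 and 213 CPM in CKO, for a log2 fold change of 0.72 ± 0.08.

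Among the other rises, Pth1r, the receptor of parathyroid hormone and its related peptide, went from 2.49 ± 0.0653 CPM (SD, n = 3 libraries) to 5.73 ± 0.739 CPM (n = 3 libraries). Control replicates 1 and 3 share a library number, so Control SDs may understate the spread between lungs. Mmp2, the gelatinase A that cuts denatured collagen and basement membrane collagen, went from 133 ± 5.36 to 265 ± 33.9 CPM. Mark1, a kinase that acts on microtubule-binding proteins, rose by 1.52 ± 0.16 on the log2 scale, and Rrad, a small GTPase of muscle, by 1.30 ± 0.16. Clip3, a microtubule linker protein, rose by 1.0 ± 0.12, Tubb6, a beta tubulin, by 0.83 ± 0.10, and Rgs7bp, an anchor of a G protein regulator, by 0.96 ± 0.13. Zfp423, a zinc finger factor of mesenchymal cells, rose by 0.80 ± 0.11 and Jam3, a junctional adhesion molecule, by 0.75 ± 0.13. The matrix genes Fbln2, Col5a1, Aspn, Loxl2 and Col3a1 are described with their families, and the rest of this group is not described here.

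The 9 genes that fell in both fits included synaptic, vascular and epithelial genes. Gria1, a subunit of AMPA glutamate receptors, stood at 26.7, 37.4 and 27.1 CPM in Control and 15.6, 15.8 and 17.7 CPM in CKO, for a log2 fold change of -0.89 ± 0.12 (adjusted p = 0.00318). Slc13a4, a sulfate transporter, went from 4.70, 6.20 and 4.79 CPM to 1.16, 0.946 and 0.795 CPM, a log2 fold change of -2.43 ± 0.28 (adjusted p = 0.00178). In both genes Control replicate 2 was the highest library, and the groups did not overlap. Bmper, a secreted protein that binds BMP ligands and modulates them in vessels, stood at 17.2, 19.6 and 16.4 CPM in Control and 6.48, 6.46 and 7.11 CPM in CKO. Its CKO libraries differed by less than 1 CPM, and the log2 fold change was -1.41 ± 0.21 (adjusted p = 0.0071). Angpt1, the angiopoietin that mural cells send to the Tie2 receptor of endothelium, went from 132, 162 and 132 CPM to 86.8, 77.7 and 88.8 CPM, a log2 fold change of -0.75 ± 0.11. Hopx, a homeodomain protein of alveolar type 1 cells, stood at 369, 320 and 357 CPM in Control and 228, 206 and 213 CPM in CKO, for a log2 fold change of -0.69 ± 0.08. Pfkfb3, an enzyme that speeds glycolysis, fell from 160 ± 11.8 to 104 ± 10.2 CPM (SD, n = 3 each). Unc5d, a netrin receptor, had a log2 fold change of -1.70 ± 0.22, Cntn1, the axonal adhesion protein contactin, one of -2.01 ± 0.30, and Syt14, a synaptotagmin, one of -1.13 ± 0.14. With the term for sex Gria1 had the smallest adjusted p of the 9 (0.000862, log2 fold change -1.19), and Bmper, Hopx and Pfkfb3 did not pass (adjusted p = 0.0601, 0.0602 and 0.0602).

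**Figure D2:**
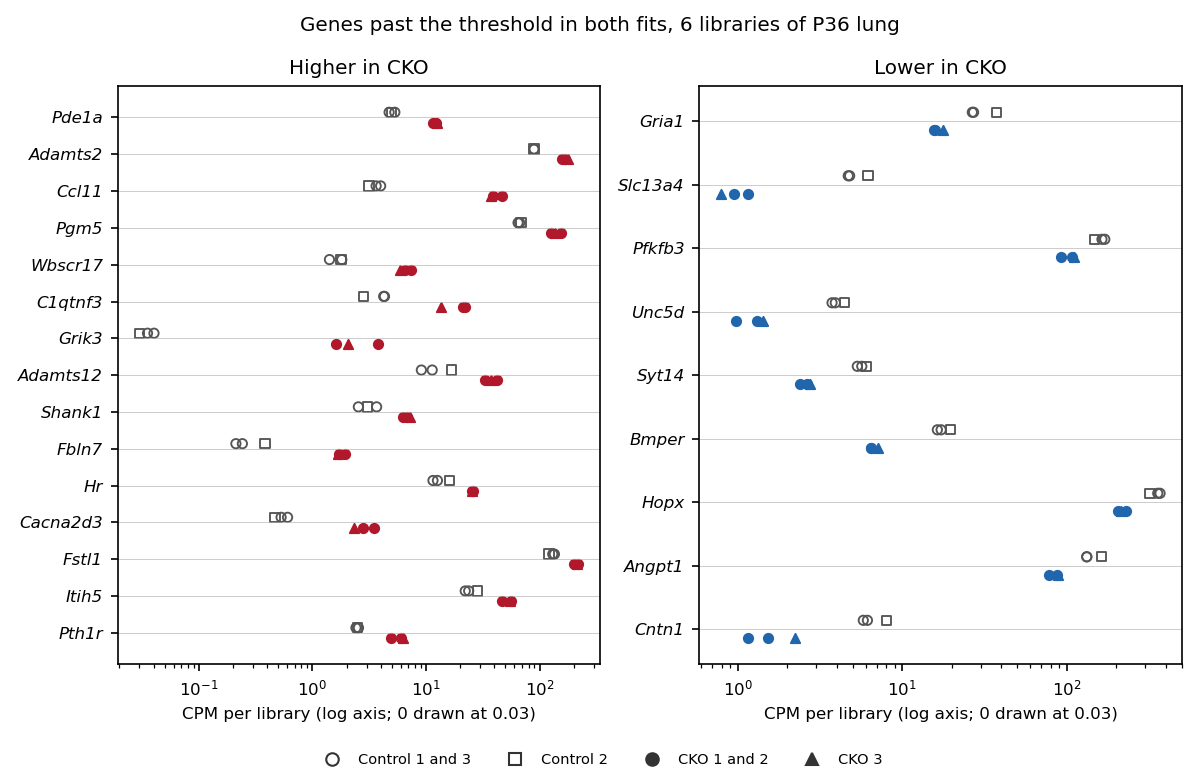
CPM in each of the 6 P36 libraries on a log axis for 15 genes that rose (left, red) and 9 that fell (right, blue) in both fits; open circles are Control replicates 1 and 3, open squares Control replicate 2, filled circles CKO replicates 1 and 2 and filled triangles CKO replicate 3. In every gene drawn the CKO libraries do not overlap the Control libraries, and CKO replicate 3 lies beside the other CKO libraries except in C1qtnf3, where it stands at 13.6 CPM.

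The P14 lungs are separate libraries, whose levels did not enter the P36 contrast that chose these 40 genes, although they share the dispersion estimate. CKO replicates 2 and 3 at P14 also carried the same library number, and the fit counts them as separate samples. Of the 40, 37 had the same sign of change at P14 and 20 passed there, 15 higher and 5 lower. Over all autosomal genes 42.5% had the same sign at both ages and 4.39% passed at P14, 3.28% higher and 1.11% lower. With libraries of a shared number summed, a setting chosen after seeing the data, 37 of the 40 had the same sign and 15 passed at P14, 13 higher and 2 lower, beside 0.807% of autosomal genes (0.631% higher and 0.176% lower). All 9 genes that fell had a negative fold change at P14, and 28 of the 31 that rose a positive one. The exceptions were Grik3 (-0.23 ± 0.46 at P14), Fbln2 (-0.15 ± 0.12) and Col5a1 (-0.07 ± 0.11). The median size of the log2 change over the 40 was 1.09 at P36, the age at which they were chosen, and 0.56 at P14. Pde1a changed by 1.16 ± 0.08 at P14, Ccl11 by 3.01 ± 0.24, C1qtnf3 by 2.22 ± 0.20 and Bmper by -1.59 ± 0.20, each past the threshold there and also with libraries summed. All P14 libraries were Xist-high, so sex did not differ between genotypes at that age. Of the wider set of 356 genes, 71.1% had the same sign at P14 and 90 passed there, or 37 with libraries summed. The difference of the genotype effect between the ages passed for 1.55% of autosomal genes and for 9 of the 40, and with libraries summed for no autosomal gene (edgeR; 1917 at an unadjusted p under 0.05).

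**Figure D3:**
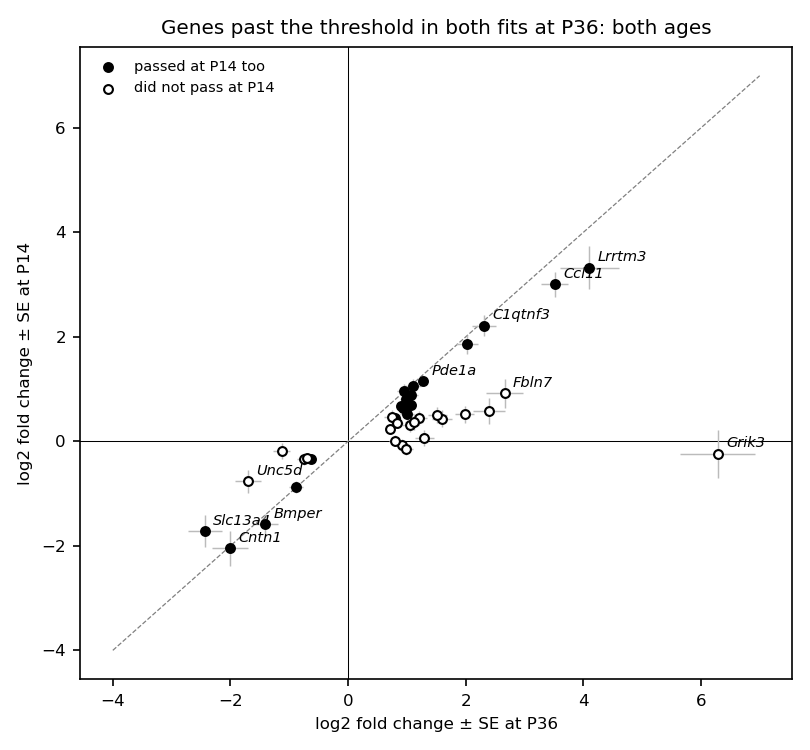
Log2 fold change of CKO over Control at P36 (horizontal axis) and at P14 (vertical axis), each ± SE, for the 40 genes past the threshold in both P36 fits; filled points also passed at P14 with all libraries counted apart, and the dashed line marks equal change. Ccl11, Lrrtm3 and C1qtnf3 lie near the line, and Grik3 lies at 6.28 on the P36 axis and -0.23 on the P14 axis. SEs are from the fit with all libraries counted apart.

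Fibrillar collagens, the rope-like proteins that bear tension in airways and vessel walls, were higher in CKO across the family. All 10 tested members had a positive fold change, 5 rose and none fell, with a median log2 fold change of 0.71. Over all autosomal genes 8147 of 15372 were positive, 1.51% rose and the median was 0.01. Col3a1, the collagen III chain of distensible tissue, stood at 666, 726 and 640 CPM in Control and 1378, 1148 and 1692 CPM in CKO, for a log2 fold change of 1.05 ± 0.13 (adjusted p = 0.00213). Every CKO library was above every Control library, CKO replicate 3 was the highest, and without it the log2 fold change was 0.90. Col5a1, a chain of the collagen V that starts fibrils, went from 84.2, 110 and 83.0 CPM to 168, 159 and 194 CPM, a log2 fold change of 0.91 ± 0.12. Its partner chain Col5a2 rose by 0.59 ± 0.09 and Col5a3 by 2.39 ± 0.40, the latter from 2.67 ± 0.760 to 14.0 ± 5.37 CPM (SD, n = 3 each). The main collagen I chains differed in their call. Col1a2 rose by 0.83 ± 0.16 (adjusted p = 0.0244), while Col1a1 stood at 559, 590 and 539 CPM in Control and 917, 811 and 1646 CPM in CKO, for a log2 fold change of 1.0 ± 0.24 that did not pass (adjusted p = 0.0567). Without CKO replicate 3 the value for Col1a1 was 0.62 (adjusted p = 0.0551). Per kilobase of gene model, Col3a1 (122 CPM in Control and 253 CPM in CKO) and Col1a1 (120 and 239 CPM) were the most abundant of the family, far above Col5a1 (11.0 and 20.7 CPM). With libraries summed 2 members passed, Col3a1 and Col5a1, and with the term for sex none passed, at a median of 0.70.

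Enzymes that process and crosslink collagen followed in part. Of 25 tested, 5 rose and 1 fell, beside 1.51% and 0.807% of all autosomal genes. The list median was 0.20, or 0.10 with the term for sex. Beside Adamts2, its relative Adamts3 rose by 1.05 ± 0.22 and Bmp1, which removes the carboxy-terminal propeptide, by 0.47 ± 0.10. The lysyl oxidase family links collagen and elastin chains. Loxl2 went from 52.1, 62.5 and 52.0 CPM to 102, 91.7 and 97.2 CPM, a log2 fold change of 0.80 ± 0.10, and Loxl1 rose by 0.71 ± 0.12. Lox itself did not pass, with a Control mean of 172 ± 54.6 CPM and a CKO mean of 208 ± 38.9 CPM and with a log2 fold change of 0.28 that was -0.17 with the term for sex. Pcolce2, an enhancer of propeptide removal, fell by 0.72 on the log2 scale, from 252 ± 13.9 to 153 ± 6.81 CPM. Enzymes that modify collagen inside the cell did not pass, among them the prolyl hydroxylase gene P4ha1 (-0.20), the lysyl hydroxylase gene Plod2 (-0.34) and the chaperone gene Serpinh1 (0.20). Adamts2 and Loxl2 passed with libraries summed, and Adamts2 with the term for sex.

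Of 29 other collagens 8 rose and 2 fell, beside 1.51% and 0.807% of all autosomal genes, with a median of 0.38. Col15a1, a collagen of basement membrane zones, went from 22.1, 18.5 and 20.9 CPM to 62.8, 53.4 and 97.7 CPM, a log2 fold change of 1.80 ± 0.29. Col8a1, a short-chain collagen of vessel walls, rose by 1.16 ± 0.19, and Col14a1, which binds the surface of collagen I fibrils, by 0.87 ± 0.18. Col6a3, a chain of the beaded filaments of collagen VI, rose by 0.69 ± 0.12, while Col6a5 fell by 1.41 on the log2 scale. Col28a1 rose by 2.56 ± 0.51, from 0.760 ± 0.256 to 4.52 ± 0.397 CPM (SD, n = 3 each). Col23a1, a transmembrane collagen, stood at 78.5, 104 and 77.6 CPM in Control and 38.6, 55.5 and 45.6 CPM in CKO, for a log2 fold change of -0.90 ± 0.15. None of these 29 genes passed with libraries summed, and Col23a1 was the one that passed with the term for sex (-1.17, adjusted p = 0.0317).

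Elastic fibres, which let alveoli and vessels recoil, gave 6 rises and no fall among 19 tested genes. Over all autosomal genes 1.51% rose and 0.807% fell. Of the 19 genes 17 were positive, with a median of 0.39. Eln, elastin itself, stood at 324, 584 and 335 CPM in Control and 1365, 923 and 896 CPM in CKO. The groups did not overlap, Control replicate 2 was the highest Control library, and the log2 fold change of 1.36 ± 0.23 (adjusted p = 0.0134) was 0.86 with the term for sex, where it did not pass (adjusted p = 0.216). Fbn1, the fibrillin of the surrounding microfibrils, rose by 0.71 ± 0.13. The named fibulins, which bridge elastin and microfibrils, all had positive fold changes. Fbln2 went from 28, 23.0 and 30.3 CPM to 50.8, 59.0 and 51.4 CPM, a log2 fold change of 0.99 ± 0.12, and Fbln1 rose by 1.03 ± 0.21, while Fbln5, needed for elastic fibre assembly, did not pass (0.39 ± 0.16, adjusted p = 0.229). Ltbp3, which stores latent TGF-beta on fibres, rose by 0.34 ± 0.08, and the microfibril-associated gene Mfap4 did not pass (-0.46 ± 0.26, adjusted p = 0.398). Fbln2 and Fbln7 passed with libraries summed, and Fbln2 with the term for sex (1.22, adjusted p = 0.018).

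**Figure D4:**
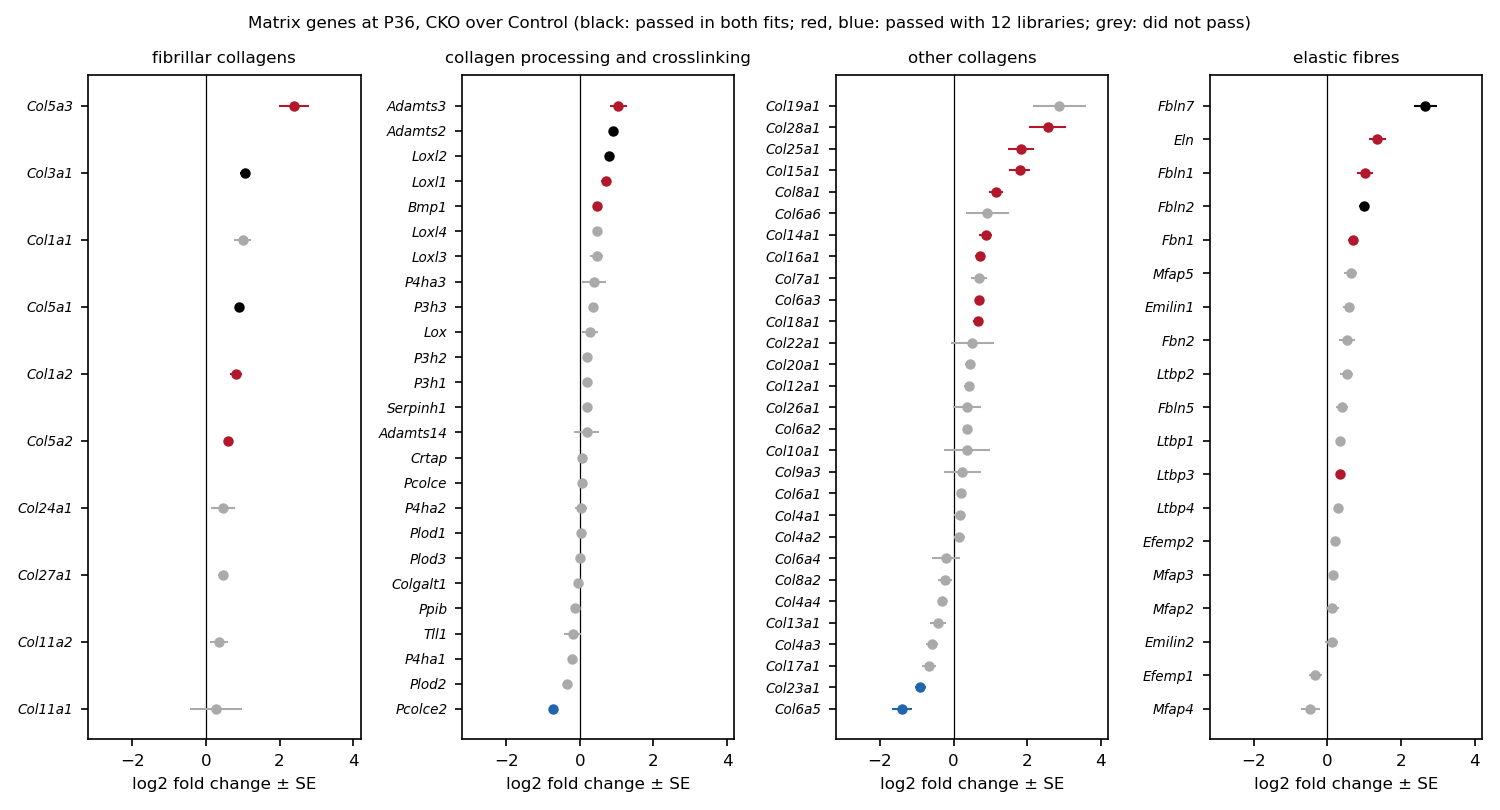
Log2 fold change of CKO over Control at P36 ± SE for each tested member of 4 matrix gene lists, ordered by value within a list. SEs are from the fit with all libraries counted apart. Black points passed the threshold in both fits, red and blue points rose or fell with all libraries counted apart and grey points did not pass; all 10 fibrillar collagens lie to the right of 0, whereas collagen processing has 6 of 25 members to the left.

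Other matrix families had medians nearer to 0. Their counts stand beside 1.51% of all autosomal genes that rose and 0.807% that fell. Of 33 proteoglycan and hyaluronan genes 4 rose and 3 fell, with a median of 0.03, or -0.05 without CKO replicate 3. Aspn, the small leucine-rich protein asporin, stood at 43.9, 41.9 and 50.2 CPM in Control and 107, 97.8 and 87.5 CPM in CKO, for a log2 fold change of 1.10 ± 0.14. Ogn, osteoglycin, which lies near Aspn on chromosome 13, moved the other way, from 551, 565 and 571 CPM to 313, 284 and 394 CPM, a log2 fold change of -0.77 ± 0.14. Vcan, the large proteoglycan versican, rose by 0.97 ± 0.16 and Gpc6, a glypican of the cell surface, by 0.99 ± 0.20. Has1, a hyaluronan synthase, stood at 2.97, 1.06 and 3.46 CPM in Control and 0.509, 0.368 and 0.377 CPM in CKO. Control replicate 2 was the lowest Control library, and the log2 fold change of -2.57 ± 0.45 was -1.33 with the term for sex (adjusted p = 0.315). Among 20 laminin and basement membrane genes 2 rose, Lama2, of muscle basement membranes, by 0.67 ± 0.11 and Lama4, of vessel basement membranes, by 0.34 ± 0.06. Of 23 matricellular genes 1 fell and none rose. This was Ctgf, the connective tissue growth factor, at 243, 183 and 242 CPM in Control and 123, 135 and 103 CPM in CKO, for a log2 fold change of -0.89 ± 0.16. Of 36 matrix proteases and their inhibitors 5 rose and none fell, with a median of 0.09. Mmp3, stromelysin, stood at 5.65, 5.82 and 6.28 CPM in Control and 50.7, 16.6 and 18.1 CPM in CKO, and its log2 fold change was 2.27 ± 0.43. CKO replicate 1 was by far the highest library for Mmp3. Reck, a membrane-anchored inhibitor of such proteases, rose by 0.38 ± 0.08. In these 4 families Aspn, Adamts12 and Mmp2 passed with libraries summed.

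The BMP pathway, which restrains growth of vascular smooth muscle and whose receptor gene is the best known gene of heritable pulmonary hypertension, had 38 tested ligands, receptors, inhibitors and targets. Of these 2 rose and 1 fell, beside 2.32% called over all autosomal genes, with a median of 0.12, or 0.05 with libraries summed. Among the ligands Bmp5 stood at 74.2, 86.7 and 76.4 CPM in Control and 142, 138 and 116 CPM in CKO, for a log2 fold change of 0.74 ± 0.14 (adjusted p = 0.0233). Bmp2, Bmp4 and Bmp6 did not pass, with log2 fold changes of 0.32, 0.26 and 0.18, nor did Bmp3 (-0.56, adjusted p = 0.0617). The receptor gene Bmpr2 stood at 3153, 4113 and 3358 CPM in Control and 3239, 2765 and 2732 CPM in CKO. The groups overlapped, and the log2 fold change was -0.28 ± 0.13 (adjusted p = 0.305). The endothelial receptor genes Acvrl1 and Eng did not pass (0.13 and 0.06). The extracellular modulators Bmper and Fstl1 changed in opposite directions and both passed with libraries summed. The BMP antagonists Grem1 (1.67 ± 0.59, adjusted p = 0.171) and Nog (0.69 ± 0.61) did not pass, and neither did the target genes Id1 (-0.22), Id2 (0.16) and Id3 (0.43). None of the 18 tested genes linked to inherited pulmonary hypertension passed, and their median was 0.00. Cav1, the caveolin of endothelium and type 1 cells, was at -0.45 ± 0.13 in that list (adjusted p = 0.108), and Klf2, a flow-responsive factor of endothelium, at -0.57 ± 0.17 (adjusted p = 0.119).

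Other signalling pathways ranged from no called member to 4 of 17, beside 2.32% called over all autosomal genes. Of 22 TGF-beta and activin genes 3 rose, the ligand gene Tgfb3 by 0.94 ± 0.18, and 2 genes of proteins that hold and release latent TGF-beta, Itgb8 by 1.27 ± 0.21 and Lrrc32 by 0.83 ± 0.18. Of 17 Hedgehog genes 3 rose and 1 fell, with 15 positive and a median of 0.24. The ligand gene Shh (0.25), the receptor gene Ptch1 (0.07) and the target gene Gli1 (0.38) did not pass, and the groups overlapped for each. Among the rises was the transcription factor gene Gli3, by 0.44 ± 0.07. The genes of secreted proteins that release Hedgehog ligand divided, with Scube2 at 75.3, 69.2 and 77.0 CPM in Control and 32.8, 35.8 and 30.4 CPM in CKO, for a log2 fold change of -1.16 ± 0.20, and Scube3 up by 1.12 ± 0.23. Of 45 Wnt genes 2 rose, the secreted modulator gene Dkk3 by 0.74 ± 0.11 and the receptor gene Ror2 by 0.65 ± 0.14. Of 20 PDGF and VEGF family genes Angpt1 fell and none rose. Of 16 Notch genes Notch3, the receptor of mural cells, rose by 0.62 ± 0.14. None of 24 FGF genes and none of 18 retinoic acid genes passed, with medians of 0.05 and 0.09. Angpt1 passed with libraries summed and the other genes of this paragraph did not.

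Of 37 transcription factors of lung mesenchyme 3 rose and 1 fell, beside 1.51% and 0.807% of all autosomal genes. The list median was 0.25, or 0.15 with the term for sex. Prrx1, a homeobox factor of fibroblasts, stood at 32.5, 29.3 and 32.5 CPM in Control and 50.5, 47.7 and 64.7 CPM in CKO, for a log2 fold change of 0.79 ± 0.11 (adjusted p = 0.0046, or 0.0513 with libraries summed). Osr1 rose by 0.79 ± 0.17 and Hoxb4 by 0.59 ± 0.13. Hoxb3, the neighbour of Hoxb4, rose by 0.67 ± 0.11. Tcf21, a factor of alveolar fibroblasts, stood at 43.4, 41.2 and 41.2 CPM in Control and 26.0, 24.4 and 22.4 CPM in CKO, for a log2 fold change of -0.79 ± 0.17 (adjusted p = 0.0353). Among 35 genes of vascular tone 3 rose and 1 fell, beside the same shares over all autosomal genes. Adm, the vasodilator adrenomedullin, rose from 2.61, 4.29 and 2.70 CPM to 16.3, 8.35 and 5.4 CPM, a log2 fold change of 1.65 ± 0.35. The alpha-1D adrenergic receptor gene Adra1d rose by 0.72 ± 0.15 and the prostacyclin receptor gene Ptgir by 0.68 ± 0.15. Prkg2, a kinase driven by cyclic GMP, stood at 29.9, 49.9 and 34.6 CPM in Control and 13.9, 13.6 and 14.3 CPM in CKO. The 3 CKO libraries were nearly equal, and the log2 fold change was -1.45 ± 0.25 (adjusted p = 0.0158), or -1.84 with the term for sex (adjusted p = 0.0389). None of these genes passed with libraries summed.

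Several lists described other functions, and their counts stand beside 1.51% of all autosomal genes that rose and 0.807% that fell. Of 54 genes of axon guidance and synaptic adhesion 4 rose and 2 fell. Among the rises were the synaptic gene Lrrtm3, the contactin gene Cntn4 (1.95) and the adhesion gene Ncam1 (1.80), while Cntn1 and Unc5d fell. Of 37 genes of glutamate receptors and potassium channels 3 rose and 1 fell, with 30 positive and a median of 0.36. Kcnj5, an inward rectifier channel, stood at 1.13, 0.425 and 0.846 CPM in Control and 4.54, 6.57 and 9.96 CPM in CKO. Its log2 fold change of 3.11 ± 0.64 was 2.76 without CKO replicate 3, where it did not pass (adjusted p = 0.065). Ccl11 was the single gene that passed among 35 cytokines and chemokines. Of 21 complement genes 2 rose, the receptor gene C3ar1 by 0.79 ± 0.11 and the protease gene C1s1 by 0.51 ± 0.10. Of 21 cholesterol synthesis genes 20 had a negative fold change and 2 fell, among them Msmo1 by 0.43 on the log2 scale, and the list median was -0.24, or -0.14 with the term for sex. None of 20 proliferation genes passed, with 16 positive and a median of 0.28. Of 20 interferon response genes Ifit1 and Ifit3 fell, by 0.48 and 0.49 on the log2 scale, and neither passed without CKO replicate 3 (adjusted p = 0.0715 and 0.0914). Of 20 immediate early and heat shock genes the chaperone gene Hspa1a rose, by 1.13 ± 0.23, and of 16 circadian clock genes Npas2 rose, by 1.28 ± 0.26, and Cry1 fell by 0.54 on the log2 scale. With libraries summed no member of the complement, cholesterol, interferon, heat shock and clock lists passed (C3ar1 at an adjusted p of 0.0624 and C1s1 at 0.168), and none did with the term for sex. Of the genes named in this paragraph Lrrtm3, Cntn1, Unc5d and Ccl11 passed when summed.

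Among the largest changes that passed with all libraries counted apart and not with libraries summed, Cpne4, a calcium-binding copine, was read 82 times over the Control libraries and 2 times over those of CKO, a scaled ratio of 33.7 (exact 95% interval from 9.03 up to 283). Tdo2, which breaks down tryptophan, rose from 0.459, 1.44 and 0.644 CPM to 7.32, 4.15 and 4.43 CPM, a log2 fold change of 2.65 ± 0.45. Fhl5, a cofactor with LIM domains, rose by 2.55 ± 0.39 and Kctd16, an auxiliary subunit of GABA-B receptors, by 2.93 ± 0.67, the latter at 1.48, 2.89 and 0.628 CPM in CKO. Ndst4, an enzyme that modifies heparan sulfate, had a log2 fold change of -2.11 ± 0.42 and Adgrf2, an adhesion receptor, one of -1.63 ± 0.31. For each of these 6 genes the CKO libraries did not overlap the Control libraries.

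Markers of alveolar type 1 cells, the thin cells across which gas passes, were lower in CKO as a group. All 18 tested members had a negative fold change, 15 had no overlap between groups, 4 fell and the median log2 fold change was -0.47. Over all autosomal genes 11.5% were lower with no overlap and 0.807% fell. The list score, the mean difference of its members in log2(CPM + 0.5) from the mean of the 6 libraries, was 0.18 to 0.28 in Control and -0.25 to -0.23 in CKO. Beside Hopx, Gprc5a, an orphan receptor, stood at 592, 528 and 563 CPM in Control and 347, 362 and 384 CPM in CKO, for a log2 fold change of -0.62 ± 0.09 (adjusted p = 0.00613). Lmo7, a junction protein, fell by 0.48 and the keratin gene Krt7 by 0.44 on the log2 scale. Ager, the receptor RAGE and the most used marker of these cells, stood at 715, 611 and 670 CPM in Control and 471, 451 and 426 CPM in CKO. Its groups did not overlap, yet its log2 fold change of -0.57 ± 0.15 did not pass (adjusted p = 0.0714). Without CKO replicate 3 the list median was -0.46 and with the term for sex -0.45, where none of the 18 passed. With libraries summed Hopx alone of the list passed. Of 17 markers of surfactant-making type 2 cells none passed, 16 were negative and the median was -0.27, or -0.10 with the term for sex.

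Mesenchymal markers went in different directions by cell type. Over all autosomal genes 1.51% rose and 0.807% fell. Of 18 alveolar fibroblast markers 4 fell and none rose, with 15 negative and a median of -0.33. Without CKO replicate 3 the list had 3 falls and 1 rise. Beside Scube2 and Tcf21, the actin-binding gene Nebl fell from 238, 229 and 238 CPM to 166, 174 and 163 CPM, a log2 fold change of -0.49 ± 0.07, and Mettl7a1 fell by 0.57 on the log2 scale. Npnt, which encodes nephronectin, was at -0.40 and Fgf10, a growth factor for epithelium, at -0.12, and neither passed. Of 14 markers of myofibroblasts and peribronchial fibroblasts Aspn rose, 11 were positive and the median was 0.58, or 0.35 without CKO replicate 3. All 20 smooth muscle markers were positive, with a median of 0.71, and 3 rose, which were Lmod1, a leiomodin, by 0.90 ± 0.20, Ckb, a creatine kinase, by 0.82 ± 0.14 and Smtn, smoothelin, by 0.70 ± 0.13. The contractile genes that define the cells did not pass. Acta2 stood at 192, 182 and 191 CPM in Control and 234, 243 and 441 CPM in CKO, and Myh11 at 104, 122 and 100 CPM and 146, 166 and 283 CPM. In both genes all CKO libraries lay above all Control libraries, and CKO replicate 3 was the highest. The smooth muscle score was -0.29 to -0.27 in Control, -0.06 and 0.03 in CKO replicates 1 and 2 and 0.88 in CKO replicate 3, and without that library the median was 0.33 and 2 genes rose. Of 16 pericyte markers 15 were positive and 2 rose, Abcc9, a subunit of a potassium channel, from 33.9, 26.7 and 32.7 CPM to 71.1, 64.9 and 76.8 CPM, and Notch3. Of the genes of this paragraph Aspn alone passed with libraries summed, and none passed with the term for sex.

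Adventitial fibroblasts, which surround the larger vessels and airways, gave 3 rises and 1 fall among 19 markers, beside 1.51% and 0.807% of all autosomal genes. Ccl11, Gpc6 and Col14a1 rose and Has1 fell. The median of the list was 0.36, and -0.14 without CKO replicate 3, where 1 gene rose and 1 fell. Adventitial scores were -0.02, -0.12 and 0.56 in CKO replicates 1 to 3 and -0.40 to -0.01 in Control. Ccl11 was not tied to that library, at a log2 fold change of 3.58 without it.

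**Figure D5:**
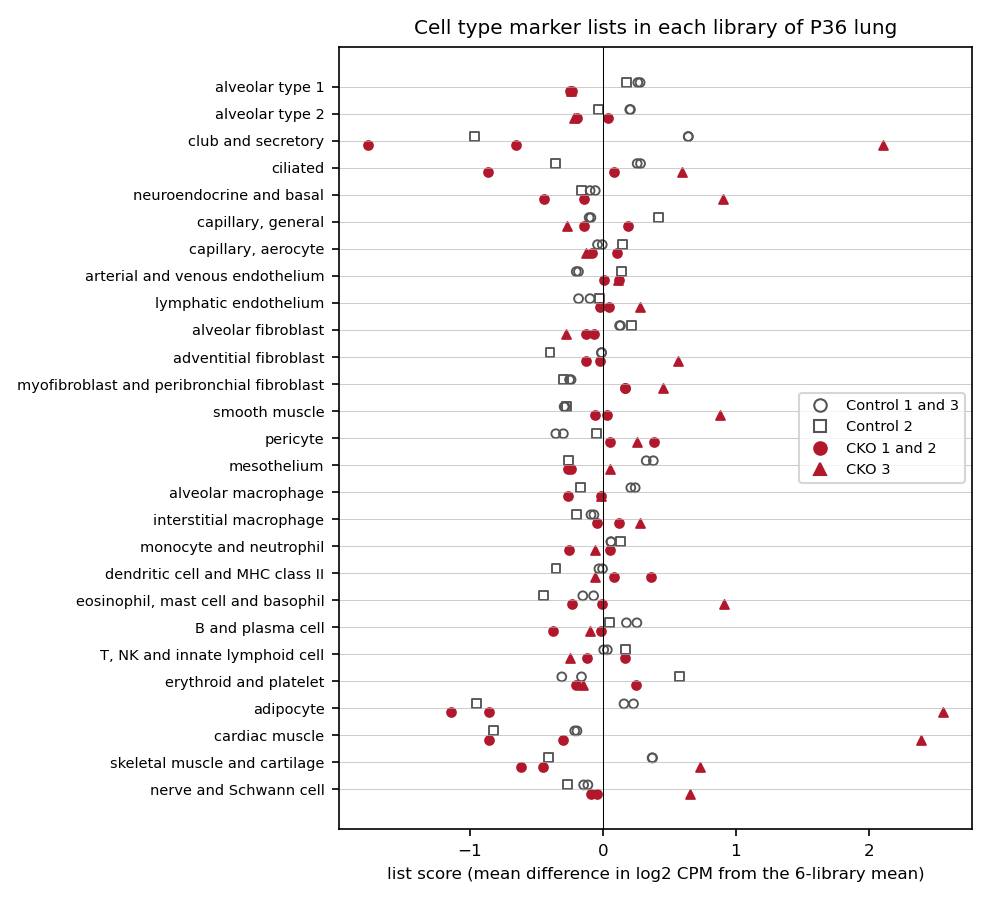
Score of each cell type marker list in each P36 library, as the mean difference of its members in log2(CPM + 0.5) from the mean of the 6 libraries; open circles are Control replicates 1 and 3, open squares Control replicate 2, filled circles CKO replicates 1 and 2 and filled triangles CKO replicate 3. The type 1 scores of the 3 CKO libraries lie at -0.25 to -0.23 below all Control libraries, while the triangle of CKO replicate 3 stands far to the right for adipocyte, cardiac muscle and club cell lists.

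Lists of vessels had 1 or no member past the threshold, and lists of blood cells none, beside 2.32% called over all autosomal genes. Ctla2a fell by 0.68 on the log2 scale among 12 general capillary markers, Nr2f2, the factor of venous identity, rose by 0.47 ± 0.07 among 14 arterial and venous markers, and Reln, a glycoprotein of lymphatic vessels, by 0.66 ± 0.13 among 8 lymphatic markers. With libraries summed none of these 3 genes passed (adjusted p = 0.112, 0.0879 and 0.183), and none passed with the term for sex. None of 11 markers of aerocytes, the capillary cells of gas exchange, passed. None passed in the lists of macrophages, monocytes and neutrophils, dendritic cells, mast cells and eosinophils, B cells, T cells or red cells. Lists this short may well have no call at 2.32%, so this says little about them. Medians of the blood cell lists ran from -0.32 for B and plasma cells, with 12 of 14 negative, to 0.54 for eosinophils, mast cells and basophils. Without CKO replicate 3 these medians were -0.32 and 0.12. Adipocyte, cardiac muscle and club cell lists stood highest in CKO replicate 3, and whether this RNA came from inside or outside the lung was not tested. Of 15 adipocyte markers none passed and all 15 were positive, with a median of 1.75, and -1.10 without CKO replicate 3. The summed level of that list was 1717 CPM in CKO replicate 3 and 336 to 495 CPM in the other 5 libraries. Of 13 cardiac muscle markers none passed and all were positive, with a median of 1.60, and -0.28 without CKO replicate 3, where the summed level was 3595 CPM against 398 to 628 CPM. The club and secretory list scored 2.10 in CKO replicate 3 and -1.77 and -0.65 in the other CKO libraries. Control scored -0.97 to 0.64, and none of the 15 members passed. The summed level of that list set CKO replicate 3 less apart, at 44918 CPM beside 30825 to 41094 CPM in Control. The other CKO libraries had 20253 and 39630 CPM. The part of fat, heart muscle and airway RNA in the smooth muscle, adventitial and collagen values was not tested beyond the values without CKO replicate 3. There the fibrillar collagen list had 5 rises and a median of 0.60. With libraries summed as well it had 1 rise and a median of 0.57.

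Genes called at P36 lay on every autosome, at 1.43% of tested genes on chromosome 8 to 3.71% on chromosome 14. There were 15 pairs of consecutive called genes with lowest annotated coordinates within 100 kb, and genes that were not called may lie between them. In 10 of them both genes moved in the same direction, among them Mir143 and its host Mir143hg. With 65.2% of called genes higher, agreement is common between any such genes, and it was not set against other pairs. On chromosome 1 (build mm10, as are all gene coordinates) Col3a1 (45311538 to 45349706) and Col5a2 (45374331 to 45503282) rose together. On chromosome 10 Ctgf (24595442 to 24598682) fell while Enpp1 (24637914 to 24712159), an enzyme that makes the mineralization inhibitor pyrophosphate, rose from 12.7, 12.3 and 15 CPM to 30.2, 30.3 and 26.4 CPM, a log2 fold change of 1.12 ± 0.20. Enpp3, a relative of Enpp1 on the same chromosome, rose by 1.40 ± 0.24. On chromosome 18 Mir143hg, the host transcript of a smooth muscle microRNA, rose from 17.4, 32.6 and 16.6 CPM to 48.3, 46.7 and 43.7 CPM, and the Mir143 hairpin inside it, whose reads cannot be told apart from those of the host in these libraries, rose by 1.48 ± 0.32. With the term for sex Mir143hg was at 0.50 and did not pass (adjusted p = 0.379). Dnm3os, a transcript opposite to Dnm3 on chromosome 1 that carries microRNAs of connective tissue, rose by 0.82 ± 0.16. With libraries summed Col3a1 alone of the genes in this paragraph passed.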

How the data were processed

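RNA was extracted with the miRNeasy kit and libraries came from 100 ng of total RNA with the KAPA RNA HyperPrep kit, per the labels. FastQC, STAR, featureCounts, edgeR and build mm10 are named in the submitters' processing notes. The sources used here do not give versions or the strand setting. The deposited count table holds whole counts of reads per gene for 24421 genes. The authors' other table has 15458 genes on a log2 scale. Recomputed TMM log2 CPM with 2 as prior count differed from it by at most 5e-09.

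Counts were fitted with edgeR 4.0.16 in R 4.3.3 (filterByExpr with a minimum count of 10 and a total of 15, TMM, robust quasi-likelihood F-test), over 12 libraries in 4 groups, with Benjamini-Hochberg adjustment over 15923 genes and a threshold of 0.05. Autosomal genes alone are reported. Errors are standard errors for log2 fold changes and standard deviations for CPM. Standard deviations of Control and standard errors at P36 count Control replicates 1 and 3, which share a library number, as separate. Standard errors at P14 do so with CKO replicates 2 and 3. Both kinds of error may therefore understate the spread between lungs. CPM used the TMM-adjusted totals of the tested genes. In the summed fit the Control pair at P36 and a CKO pair at P14 that shared library numbers were each added up. Sex was read from Xist and Y-linked counts. On simulated counts for this contrast over 15923 genes, 35.8% of genes changed 1.5-fold, 79.1% of those changed 2-fold and 87.9% of those changed 4-fold were recovered, with 5 false among 140 calls. The simulation drew every library independently, with no near-duplicate Control pair, no outlying CKO replicate 3 and no sex imbalance. These rates therefore need not hold for the real libraries. Exact intervals cover counting error only.

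The gene lists, 28 of pathways and 27 of cell types, the members and the tests were chosen with earlier results of these data known. Named genes were up to 15 per direction past the threshold in both fits by smallest adjusted p when summed, up to 4 called members of each list, the 5 largest other rises and falls averaging at least 1 CPM in either group, and members named by role; some of these are not reported here. The remaining genes past both fits, neighbouring genes and the genes that mark CKO replicate 3 were chosen after their values were seen. Lists are described by counts and medians, with no test of the list. Alternatives numbered 21, among them DESeq2 1.42.0 and limma 3.58.1 (limma-voom, and limma trend on the deposited log2 CPM). Promoter sequences came from RefSeq.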

Additional observations from a re-analysis of the deposited data

Results flagged for a closer look

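The genotype effect differed between P36 and P14, by the test of the difference itself in edgeR (adjusted p under 0.05), for 239 autosomal genes (1.55%), 63 of them among the 356 called at P36. Of the genes named above, 20 were among them. With libraries of a shared number summed none of the 20 passed (lowest adjusted p = 0.256), with a sex term none passed (in edgeR no autosomal gene passed under either), and 7 passed without CKO replicate 3. Sex differed between genotypes at P36 and not at P14, so the age difference and sex cannot be told apart in the fit without that term.

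Values are the log2 effect at P36 less that at P14. Matrix genes were Col5a1 at 0.982, Col6a3 at 0.765, Col15a1 at 1.995, Fbln2 at 1.133, Gpc6 at 1.311, Has1 at -3.286 and the protease gene Adamts12 at 1.160. Col5a1 had a log2 fold change of 0.91 at P36 and -0.07 at P14. Ctgf, at -1.542, had a negative change at P36 (-0.89) and a positive one at P14 (0.65), and both passed at their own age. Neuronal and channel genes were Grik3 at 6.517, on few counts, and Cacna2d3 at 1.813. The enzyme gene Wbscr17 was at 1.467, the kinase gene Mark1 at 1.009 and the creatine kinase gene Ckb at 0.965. The muscle genes Rrad and Smtn were at 1.232 and 0.898, and the zinc finger gene Zfp423 at 0.784. Lower at P36 than at P14 were the interferon genes Ifit1 at -0.736 and Ifit3 at -0.822, the capillary gene Ctla2a at -0.836 and Cpne4 at -4.753, also on few counts.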

How the results depend on the processing

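None of the 123 genes chosen for naming that rose or fell changed direction under any of the 21 alternatives. As called genes they had groups without overlap at P36, so leaving out or summing libraries could hardly turn a sign. Their constant direction is therefore no further support. With Control replicate 1, 2 or 3 left out, 51, 106 and 57 of them passed, with CKO replicate 1, 2 or 3 left out 83, 82 and 108, and with library totals as the scaling 119. The 40 genes past both fits all passed under each setting except without Control replicate 1 (39), with only the P36 libraries (39), with libraries summed and CKO replicate 3 left out (32), with a term for sex (21), and with the sum combined with that term or with only the P36 libraries (1 each). Counts of higher and lower genes, 232 and 124, were 31 and 9 with libraries summed, 52 and 9 when CKO replicate 3 was left out as well, 21 and 16 with a term for sex, 0 and 1 with both, 112 and 88 with only the P36 libraries, 1 and 0 with these summed, and 486 and 347 in DESeq2. Beside the 0, edgeR gave 1085 genes an unadjusted p under 0.05. Leaving out each library gave 54 (Control replicate 1) to 348 (Control replicate 2) higher and 24 to 235 lower genes. The count of age differences, 239, was 0 with libraries summed (1917 at an unadjusted p under 0.05), 0 with these and CKO replicate 3 left out, 0 with a term for sex, 0 with both, 142 with no filter, 1005 in DESeq2 and 97 in limma-voom, and 0 to 686 when a library was left out, with 103 without CKO replicate 3. The cause of these shifts was not tested.

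Genes that did not pass and turned sign were Adipoq (-2.78 to 2.66 when a library was left out, lowest without CKO replicate 3, -2.49 with libraries summed as well, -0.067 in limma trend), Bpifa1 (likewise -7.11 to 4.53, -6.82 and -0.585, and -1.16 in limma-voom), Lox (-0.173 with a term for sex, -0.178 with the sum as well), Ptch1 (-0.0576 and -0.064, and -0.001435 without CKO replicate 1 to 0.134 without CKO replicate 3), Tbx4 (-0.01165 and -0.0173), Acvrl1 (-0.196 and -0.202), Bmp6 (-0.0279 and -0.0326) and Eng (-0.318 and -0.324, -0.049 with libraries summed, -0.041 when only the P36 libraries were, and -0.0386 to 0.3005 when a library was left out). Whether replicate numbers pair the libraries could not be settled. Deviations of same-numbered libraries correlated at -0.31, 0.17 and 0.37, and not every library correlated best with its own number. Deviations within a group sum to 0 and Control replicates 1 and 3 were nearly alike, so these correlations cannot decide it. With a replicate block 257 genes rose and 175 fell, 323 of them among the 356.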
